A study of Mus musculus with 4 samples.

Results

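Of the 55357 genes counted, 9 genes of MHC class II antigen presentation were followed: H2-Aa, H2-Ab1, H2-Eb1, Cd74, Ciita, H2-DMa, H2-DMb1, H2-DMb2 and H2-Oa. They were chosen by name and not by a cut on a measured value, though with earlier results of these data known. All 9 were found under these symbols in the count matrices, with the Ensembl identifiers ENSMUSG00000036594, ENSMUSG00000073421, ENSMUSG00000060586, ENSMUSG00000024610, ENSMUSG00000022504, ENSMUSG00000037649, ENSMUSG00000079547, ENSMUSG00000037548 and ENSMUSG00000024334 in that order. Of the 9, 7 lie together on chromosome 17, Ciita lies on chromosome 16 and Cd74 on chromosome 18. Unique molecular identifiers (UMIs, which mark single captured transcripts) were summed per library and cell class, and are given as CPM, each gene's count scaled to a fixed total of UMIs in the class. Cell classes were set cell by cell from 12 marker genes for each of 18 classes, and none of the 9 genes was a marker. Each gene is read beside its level in oligodendrocytes, since transcripts set free during dissociation give UMIs in every cell. These myelin-forming cells were assumed to lack class II, which was not tested. Their level is what is called the free-transcript level or background below.

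The cells came from the ipsilateral brain hemisphere of wild-type mice after ischemic stroke. All 4 groups had hydrogel microspheres (MAPS) placed in the infarct cavity 5 days after stroke and were sampled at 14 days. Microspheres carried extracellular vesicles (EVs) in 3 groups. The series describes its vesicles as derived from reactive astrocytes, without saying whether that holds for UT. The group labelled IL-4 C1q EV+MAPS is called IL-4/C1q EV below, the group labelled IL-1a TNFa C1q EV+MAPS is called IL-1a/TNFa/C1q EV, and the group labelled UT EV+MAPS is called UT EV. The fourth label, MAPS, names no vesicles. The labels do not spell out UT, and the number of animals per library is not given in them. Each group is 1 library, so no difference below has a replicate check or a p-value, and effects of a treatment and of the animals or library behind it cannot be told apart. Intervals are 95% intervals for counting error only. Those of CPM and of ratios treat UMIs as independent and leave out the spread between cells.

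Class II molecules carry peptides from the endosomal pathway to the cell surface, where CD4+ T cells read them. The invariant chain, Cd74, escorts the new alpha and beta chains and leaves a fragment in the peptide groove, H2-DM exchanges that fragment for other peptides, and H2-O holds H2-DM back. Ciita, the transactivator, switches the genes on: dendritic cells and B cells express it constitutively, while microglia, the resident macrophages of the brain, hold little class II at rest and gain it after injury or interferon gamma.

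Class II promoters share an X box and a Y box at a near fixed distance, to which the RFX and NF-Y factors bind and onto which Ciita docks. The promoter stretches of the members are shown because the choice of genes did not use them. RefSeq windows of 300 bases around gene starts (build GRCm38.p6, whereas the counts were made on GRCm39) were held for 6 of the 9 members. The letters TGATTGG, a Y box, and GNAAC, an X box core 15 to 50 bases before it on the same strand, were searched on both strands, and the motifs do not overlap each other. A Y box stood in 5 of the 6 members with a window and in 7.82% of all 32851 windows. The X and Y pair stood in 4 of the 6, H2-Aa, H2-Eb1, H2-DMb1 and H2-Oa, and in 1.03% of all windows. H2-DMb2 held the Y box alone, and neither of the windows of H2-DMa held these letters. H2-Ab1, Cd74 and Ciita had no window. The stretches are written 5′ to 3′ on the strand of the gene with X and Y in capitals, and lie at chr17:34287847-34287924 (minus strand) for H2-Aa, chr17:34305756-34305832 (plus) for H2-Eb1, chr17:34153077-34153154 (plus) for H2-DMb1, chr17:34145107-34145183 (plus) for H2-DMb2 and chr17:34092283-34092360 (plus) for H2-Oa.
H2-Aa: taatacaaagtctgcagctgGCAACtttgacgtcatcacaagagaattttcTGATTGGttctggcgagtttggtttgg
H2-Eb1: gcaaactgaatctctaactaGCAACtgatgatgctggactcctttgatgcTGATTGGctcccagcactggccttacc
H2-DMb1: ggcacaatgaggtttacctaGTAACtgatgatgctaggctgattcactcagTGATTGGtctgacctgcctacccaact
H2-DMb2: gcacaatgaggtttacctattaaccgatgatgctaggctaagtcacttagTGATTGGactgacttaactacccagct
H2-Oa: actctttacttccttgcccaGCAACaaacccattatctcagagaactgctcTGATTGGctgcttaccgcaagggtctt
Between X and Y lay 26 bases in H2-Aa, 25 in H2-Eb1, 26 in H2-DMb1 and 26 in H2-Oa. A match of letters is a description and does not show that a factor binds there.

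The libraries held 13076 to 15138 cell barcodes and 45691141 to 81189155 UMIs, and 12255 to 14220 cells per library were kept. Any 2 libraries shared 43 to 64 barcodes. MAPS stood apart from the EV libraries, with a median of 4541 UMIs per barcode against 2462 to 2663, and a median mitochondrial share of 1.403% against 0.552% to 0.5765%. Most gated microglia of MAPS (72.6%) lay in Leiden cluster 15, and most of those of the EV libraries (51.0% to 53.0%) in cluster 5. Across all genes, the median log2 ratio of IL-4/C1q EV over MAPS in microglia was -1.15, with 68.1% of 12306 genes past 1.5-fold lower and 10.4% past 1.5-fold higher, so ratios to MAPS are read against that shift. Among the EV libraries the median shift in microglia was -0.05 for IL-4/C1q EV over UT EV, 0.11 for IL-4/C1q EV over IL-1a/TNFa/C1q EV and -0.16 for IL-1a/TNFa/C1q EV over UT EV. Comparisons that share a library are not independent of each other.

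The microglial class held 5686 cells in IL-4/C1q EV, 6286 in IL-1a/TNFa/C1q EV, 5354 in UT EV and 7010 in MAPS. Its label fits its markers unevenly: P2ry12, a purinergic receptor of resting microglia, was found in 46.7%, 44.9%, 53.1% and 94.9% of these cells in that order. A Leiden cluster led by Ccl8, Apoc4 and Mrc1 and named border macrophage took 14.8% of the gated microglia of IL-4/C1q EV and 13.2% of those of UT EV, with 20.0% for IL-1a/TNFa/C1q EV. Microglia are therefore given as a whole and as a stricter core, chosen after seeing the data, with fewer than 2 UMIs of the macrophage gene Ms4a7 and UMIs of at least 2 of the 3 microglial genes P2ry12, Tmem119 and Sall1. The core held 2005 cells in IL-4/C1q EV, 1855 in IL-1a/TNFa/C1q EV, 2205 in UT EV and 6424 in MAPS.

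Class II transcripts were concentrated in dendritic cells, monocytes and macrophages, and B cells, which are the professional antigen-presenting cells and their precursors. The 4 abundant genes H2-Aa, H2-Ab1, H2-Eb1 and Cd74 were added up as the classical sum. In dendritic cells the sum reached 38899.8 CPM in IL-4/C1q EV, 45327 CPM in IL-1a/TNFa/C1q EV, 36149.6 CPM in UT EV and 54869.6 CPM in the 21 dendritic cells of MAPS. Monocytes and macrophages held 26056, 38127, 31823 and 46573 CPM in the same order of libraries, and B cells 17683, 21223, 14262 and 22855 CPM. Dendritic cells thus stood highest of these 3 classes, monocytes and macrophages next and B cells lowest in each of the 4 libraries. The monocyte and macrophage gate also took in cells of a Leiden cluster named dendritic, as given below.

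Border macrophages, which live in the meninges and around vessels, were lower than these 3 classes, with 4755 CPM in IL-4/C1q EV, 8071 CPM for IL-1a/TNFa/C1q EV and 4248 CPM for UT EV (MAPS had 12 such cells). Microglia as a whole stood at 1536 CPM (1518 to 1555) in IL-4/C1q EV, 3549.8 in IL-1a/TNFa/C1q EV, 2938 in UT EV and 1045 (1035 to 1055) in MAPS. T cells held 1200.3, 1479.9, 606 and 422 CPM, and oligodendrocytes 265, 309, 457 and 141 CPM, in the same order. The order of microglia and T cells was the same in all 4 libraries, whereas astrocytes, endothelial cells and mural cells changed places: mural cells held 3052, 3935 and 4169.98 CPM in the EV libraries against 47.8 CPM in the 19 mural cells of MAPS, and astrocytes 195, 1478, 1019.6 and 99.4 CPM. The part of free transcripts in these lower values was not tested beyond the oligodendrocyte level. Astrocytes stood below that level in IL-4/C1q EV and MAPS, so it was not the lowest level of every library.

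**Figure D1:**
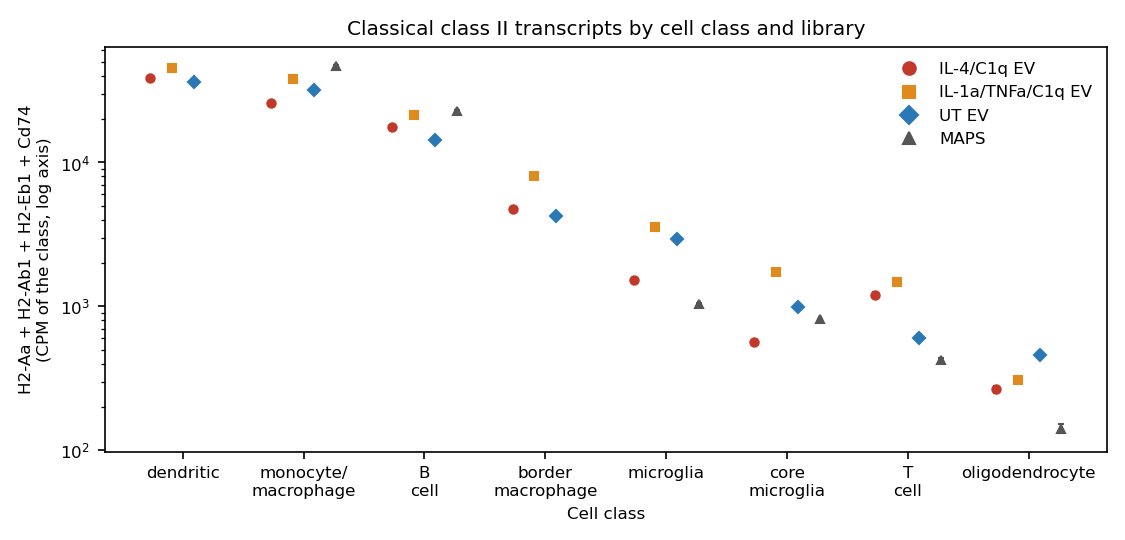
The y axis gives the summed CPM of H2-Aa, H2-Ab1, H2-Eb1 and Cd74 on a log axis, and the x axis the cell class, with 1 point per library and bars for 95% counting intervals, which are mostly smaller than the points. Classes of fewer than 50 cells in a library are left out. Dendritic cells (36149.6 to 45327 CPM in the EV libraries) stand highest and oligodendrocytes (141 to 457 CPM) lowest of the 8 classes drawn, and IL-4/C1q EV is the lowest library in core microglia.

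Counted by cells rather than by molecules, B cells and monocytes and macrophages again stood far above microglia. B cells now stood above monocytes and macrophages in each library, the reverse of their order by CPM. Dendritic cells are not given in this count. Every cell was thinned at random to 1000 UMIs so that shares are compared at equal depth, and a cell was counted when it held at least 2 of the 4 classical genes. B cells passed in 92.8% in IL-4/C1q EV, 91.01% in IL-1a/TNFa/C1q EV, 88.5% in UT EV and 96.8% in MAPS. Monocytes and macrophages passed in 70.0%, 83.5%, 77.6% and 86.5%, in the same order. Microglia passed in 6.56%, 14.0%, 12.4% and 5.03%, against 0.883%, 1.75%, 1.31% and 0.803% of oligodendrocytes. Before thinning, median depth was 2505.5, 2454, 2795 and 4610 UMIs in microglia and 3916, 3719.5, 4186 and 7289.5 UMIs in oligodendrocytes.

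Microglia and monocytes and macrophages held much of the class II signal. Of all classical class II UMIs in the kept cells of a library, microglia held 16.2% in IL-4/C1q EV, 21.7% in IL-1a/TNFa/C1q EV, 28.9% in UT EV and 45.6% in MAPS. Monocytes and macrophages held 43.4%, 31.2%, 34.4% and 17.9%. That gate was mixed, with 36.8%, 35.4%, 26.9% and 75.5% of its cells in a Leiden cluster named dendritic. Without those cells 39743 of its 71997 classical UMIs remained in IL-4/C1q EV and 53528 of 66615 in UT EV. Cells that no class claimed held 22.1%, 25.04%, 21.4% and 7.47%, so a sizeable part of the EV libraries' class II signal has no class name here.

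The alpha and beta chains of the classical molecules of microglia were lowest, among the EV libraries, in IL-4/C1q EV. H2-Aa, the alpha chain of I-A, stood at 252 CPM in IL-4/C1q EV, 552 in IL-1a/TNFa/C1q EV, 450 in UT EV and 159 in MAPS. H2-Ab1, the beta chain of I-A, stood at 308, 604, 549 and 159 CPM in that order. H2-Eb1, the beta chain of I-E, stood at 205, 413, 351 and 102 CPM. All 3 had the same order of libraries, and all 3 were lower in IL-4/C1q EV than in UT EV, with ratios of 0.559 (0.539 to 0.580) for H2-Aa, 0.562 (0.544 to 0.581) for H2-Ab1 and 0.585 (0.561 to 0.609) for H2-Eb1. The partner of H2-Eb1, H2-Ea, which some inbred mouse strains do not express, had 0 UMIs in the microglia of each library.

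Cd74 was the most abundant member and moved with the chains. Its level in microglia was 771 CPM in IL-4/C1q EV, 1981 in IL-1a/TNFa/C1q EV, 1588 in UT EV and 625 in MAPS, a ratio of 0.486 (0.476 to 0.495) for IL-4/C1q EV over UT EV and 0.389 (0.382 to 0.397) over IL-1a/TNFa/C1q EV. With the chains added, the classical sum of IL-4/C1q EV was 0.523 (0.515 to 0.531) of UT EV and 0.433 (0.427 to 0.439) of IL-1a/TNFa/C1q EV. IL-1a/TNFa/C1q EV stood above UT EV by 1.208 (1.195 to 1.222). Cd74 made up 50.2% of the classical UMIs of microglia in IL-4/C1q EV, 55.8% in IL-1a/TNFa/C1q EV, 54.1% in UT EV and 59.8% in MAPS, and 40.8%, 44.7%, 44.4% and 44.3% in monocytes and macrophages.

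Genes were called when their ratio was past 1.5-fold and both libraries together gave 100 or more UMIs of the gene in that class. In microglia of IL-4/C1q EV over UT EV, 5 of the 8 members with enough UMIs were past 1.5-fold lower and 0 higher, against 2.74% of 9891 genes lower and 1.93% higher. The 5 were H2-Aa, H2-Ab1, H2-Eb1, Cd74 and H2-DMb2, and the median log2 ratio of the 8 was -0.80 against -0.05 for all genes. For IL-4/C1q EV over IL-1a/TNFa/C1q EV the same count was 5 of 8 lower and 0 higher, against 1.73% of genes lower and 5.31% higher, with medians of -0.99 for the members and 0.11 for all genes. For IL-1a/TNFa/C1q EV over UT EV, 0 of 8 were past 1.5-fold in either direction, against 5.1% of genes lower and 0.973% higher. Both of the first pairs share the IL-4/C1q EV library.

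The core microglia gave the same direction among the EV libraries and a wider gap to IL-1a/TNFa/C1q EV. The classical sum of the core was 567 CPM in IL-4/C1q EV, 1736 in IL-1a/TNFa/C1q EV, 993 in UT EV and 811 in MAPS. IL-4/C1q EV stood at 0.571 (0.547 to 0.596) of UT EV and 0.326 (0.313 to 0.340) of IL-1a/TNFa/C1q EV, and IL-1a/TNFa/C1q EV at 1.75 (1.69 to 1.81) of UT EV. Of the 7 members with enough UMIs in the core, 4 were past 1.5-fold lower in IL-4/C1q EV than in UT EV, against 3.75% of genes lower and 2.07% higher. The same 4 genes, H2-Aa, H2-Ab1, H2-Eb1 and Cd74, were past it against IL-1a/TNFa/C1q EV, where 2.12% of genes were lower and 4.46% higher. They were also past 1.5-fold higher in IL-1a/TNFa/C1q EV than in UT EV, where 4.62% of genes were lower and 1.01% higher.

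Against MAPS the direction depended on which cells were called microglia. Over all gated microglia the classical sum of IL-4/C1q EV was 1.47 (1.45 to 1.49) times that of MAPS, with H2-Eb1 at 2.01 (1.92 to 2.10), H2-Ab1 at 1.94 (1.87 to 2.01), H2-Aa at 1.59 (1.53 to 1.65) and Cd74 at 1.23 (1.21 to 1.26). Of the 9 members, 3 were past 1.5-fold higher and 3 past it lower, against 10.4% of all genes higher and 68.1% lower. The median log2 ratio of all genes was -1.15. In the core the sum turned to 0.698 (0.673 to 0.725) of MAPS, with 3 of 8 members past 1.5-fold lower and 0 higher, where 65.7% of genes were lower and 10.8% higher. The core made up 35.3% of gated microglia in IL-4/C1q EV, 29.5% in IL-1a/TNFa/C1q EV, 41.2% in UT EV and 91.6% in MAPS. It was set on counts before thinning, so entry also depends on depth. Gated microglia had a median of 4610 UMIs in MAPS against 2454 to 2795 in the EV libraries. The part of depth in these shares was not tested.

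**Figure D2:**
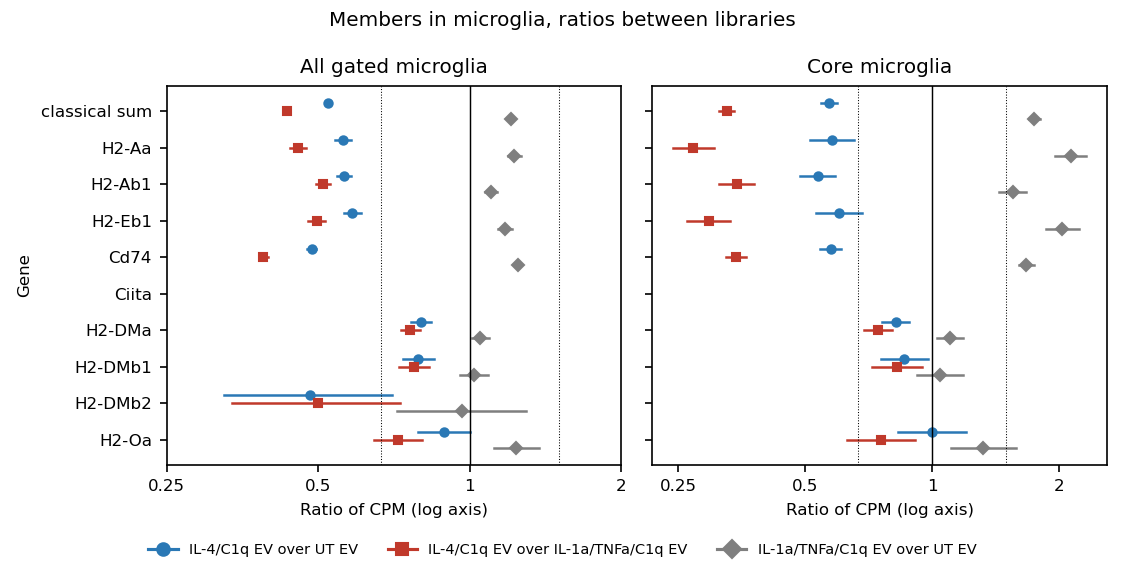
The x axis gives the ratio of CPM between 2 libraries on a log axis for the classical sum and each member, with 95% counting intervals, a solid line at 1 and dotted lines at 1.5-fold either way. The left panel holds all gated microglia and the right panel the core, and genes with fewer than 100 UMIs over the 2 libraries are not drawn. The classical sum of IL-4/C1q EV lies at 0.523 of UT EV and 0.433 of IL-1a/TNFa/C1q EV on the left, and at 0.571 and 0.326 on the right, while H2-DMa, H2-DMb1 and H2-Oa lie between the dotted lines.

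Within gated microglia, class II levels differed between cells with and without macrophage genes. Cells with at least 2 UMIs of Ms4a7, a membrane protein gene of macrophages, made up 8.88% of gated microglia in IL-4/C1q EV, 12.5% in IL-1a/TNFa/C1q EV, 9.25% in UT EV and 2.71% in MAPS. Their classical sum was 4760.5, 6242, 7150.4 and 2573 CPM in that order, which in each library was above that of the core. They also held more UMIs per cell, with medians of 5452, 5769.5, 6677 and 12114. The cells that were in neither set held 1052 CPM in IL-4/C1q EV, 3189 in IL-1a/TNFa/C1q EV, 2698 in UT EV and 2845 in MAPS, so that the Ms4a7 cells were the highest of the 3 sets in each EV library and not in MAPS. Of the classical UMIs of gated microglia, the Ms4a7 cells held 53.4% in IL-4/C1q EV, 41.8% in IL-1a/TNFa/C1q EV, 46.8% in UT EV and 14.3% in MAPS, and the core 11.7%, 12.3%, 12.2% and 68.1%. IL-4/C1q EV was lower than both other EV libraries in each of the 3 sets. Over all gated microglia Ms4a7 stood at 267 CPM in IL-4/C1q EV, 354 in IL-1a/TNFa/C1q EV, 242 in UT EV and 35.7 in MAPS, and the monocyte gene Ccr2 at 2.23, 2.01, 2.57 and 7.85 CPM. Without the cells of at least 2 Ms4a7 UMIs the classical sum of IL-4/C1q EV was 0.447 of UT EV and 0.910 of MAPS.

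Class II was carried by few microglia at a time. After thinning, 79.3% of microglia in IL-4/C1q EV, 65.4% in IL-1a/TNFa/C1q EV, 69.4% in UT EV and 80.8% in MAPS held no classical UMI. Cells with at least 10 such UMIs were 2.08%, 5.44%, 4.76% and 1.18%. The 5% of microglia with the most held 77.6%, 65.4%, 66.6% and 75.8% of all classical UMIs. In the core, cells with at least 10 UMIs were 0.353%, 1.89%, 0.914% and 0.798%. Before thinning, 27.8%, 45.3%, 41.3% and 46.3% of core cells held a classical UMI, so the share without any depends on depth.

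In the core of IL-4/C1q EV, H2-Aa was close to the free-transcript level. H2-Aa was found in 2.83% (2.14 to 3.66) of thinned core cells there against 1.32% (0.686 to 2.30) of oligodendrocytes, so the intervals overlapped. Its level there was 73.1 CPM (66.2 to 80.6) against 51.2 CPM (44.5 to 58.5), which did not overlap. Those CPM intervals treat UMIs as independent, while the 406 UMIs of the core came from 103 of 2005 cells. They therefore cannot separate the core from oligodendrocytes for H2-Aa. In IL-1a/TNFa/C1q EV, H2-Aa was found in 6.15% (5.10 to 7.34) of core cells against 2.96% (2.11 to 4.02) of oligodendrocytes. Cd74 stood clear of the oligodendrocyte level in each library. It was found in 9.29%, 19.4%, 16.0% and 13.9% of core cells against 2.54%, 6.15%, 4.18% and 2.25% of oligodendrocytes. Mural cells of the EV libraries held a higher classical sum than the core, so this holds for the oligodendrocyte level alone. Taking the oligodendrocyte CPM off each library left the ratio of IL-4/C1q EV over UT EV in all gated microglia at 0.512.

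The transactivator gene was scarce outside the professional presenting cells. Ciita had 1252 UMIs in all kept cells, the fewest of the 9. In B cells it stood at 68.9 CPM in IL-4/C1q EV, 49.5 in IL-1a/TNFa/C1q EV, 56.6 in UT EV and 270 in MAPS. In monocytes and macrophages it stood at 44.2, 36.6, 44.9 and 185 CPM, and in dendritic cells at 42.0, 43.3, 49.0 and 277 CPM. MAPS was higher than each EV library in all 3 classes, with IL-4/C1q EV over MAPS at 0.255 (0.124 to 0.470) in B cells and 0.239 (0.176 to 0.326) in monocytes and macrophages. The median log2 ratio of all genes in those pairs was -0.47 and -0.27, and the classical sums there were 0.774 and 0.559 of MAPS.

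In microglia Ciita was counted in 24 UMIs in IL-4/C1q EV, 49 in IL-1a/TNFa/C1q EV, 33 in UT EV and 126 in MAPS, or 1.37, 2.40, 1.73 and 3.02 CPM. The ratio of IL-4/C1q EV over UT EV was 0.794 with an interval of 0.449 to 1.38, on fewer than 100 UMIs, so a difference of the size seen in the chains was not detectable at this depth. In thinned core microglia the share with Ciita was 0% to 0.0914%, and in oligodendrocytes 0% to 0.321%, so the gene was at background in those cells.

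H2-DMa and H2-DMb1, the alpha and beta chains of the peptide editor H2-DM, were expressed by microglia well above the free-transcript level and differed less between libraries than the classical genes. H2-DMa stood at 201 CPM in microglia of IL-4/C1q EV, 264 in IL-1a/TNFa/C1q EV, 252 in UT EV and 189 in MAPS. It was found in 17.4%, 21.5%, 21.5% and 17.3% of thinned microglia against 1.32%, 1.37%, 1.31% and 1.61% of oligodendrocytes. H2-DMb1 stood at 76.7, 99.0, 97.0 and 81.6 CPM, in 6.99%, 8.19%, 7.97% and 8.25% of thinned microglia against 0.442%, 0.531%, 0.410% and 0.321% of oligodendrocytes. IL-4/C1q EV was the lowest of the EV libraries for both genes, at 0.800 (0.766 to 0.836) of UT EV for H2-DMa and 0.790 (0.736 to 0.848) for H2-DMb1, inside 1.5-fold.

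Core microglia and gated microglia differed far less in H2-DM than in the classical genes. H2-DMa in the core was 206, 277, 252 and 194 CPM, near the values of the whole class in each library, while the classical sum of the core was below that of the whole class in each. For every 100 classical UMIs, core microglia held 36.4 H2-DMa UMIs in IL-4/C1q EV, 15.97 in IL-1a/TNFa/C1q EV, 25.4 in UT EV and 23.9 in MAPS. Monocytes and macrophages held 1.83, 1.72, 1.52 and 1.5002, and dendritic cells 1.40, 1.40, 1.40 and 1.61. The members were thus not in 1 ratio across classes.

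H2-DMb2, the other gene for the beta chain, made up most of the beta chain UMIs in B cells and a smaller part in dendritic cells, monocytes and macrophages, and microglia. Of the UMIs of H2-DMb1 and H2-DMb2 together, H2-DMb2 took 76.4% (63.0 to 86.8) in B cells of IL-4/C1q EV. The share was 78.3% (72.4 to 83.5) in B cells of IL-1a/TNFa/C1q EV, 80.5% (65.1 to 91.2) in those of UT EV and 77.9% (72.8 to 82.5) in MAPS. It took 20.0%, 19.6%, 14.7% and 16.3% in dendritic cells, 4.78%, 7.56%, 5.13% and 8.80% in monocytes and macrophages, and 2.97%, 4.53%, 4.78% and 7.24% in microglia. The order of these 4 classes was the same in each library, although the intervals of monocytes and macrophages and of microglia overlapped in each library but IL-1a/TNFa/C1q EV, and those of dendritic cells and of monocytes and macrophages overlapped in MAPS. The transcripts of the 2 genes are 94.6% identical over 1219 aligned bases and share 206 stretches of 91 bases, so some reads could be counted to the wrong gene. Their last 500 bases, where 3′ libraries place most reads, shared 0 such stretches and were 89.2% identical over 334 aligned bases.

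In microglia H2-DMb2 was rare, with 41 UMIs in IL-4/C1q EV, 96 in IL-1a/TNFa/C1q EV, 93 in UT EV and 266 in MAPS. That is 2.35, 4.70, 4.88 and 6.37 CPM, and IL-4/C1q EV stood at 0.481 (0.325 to 0.702) of UT EV. Its ratio was 0.499 (0.338 to 0.727) to IL-1a/TNFa/C1q EV and 0.368 (0.258 to 0.513) to MAPS. In the core it had 10, 29, 37 and 237 UMIs, and was found in 0.151% (0.0312 to 0.442) of thinned core cells of IL-4/C1q EV against 0% (0 to 0.406) of oligodendrocytes, so it was not separated from background there.

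H2-Oa, the alpha chain of the H2-DM inhibitor H2-O, was present in microglia and near 0 in border macrophages. Microglia held 30.1 CPM of it in IL-4/C1q EV, 41.9 in IL-1a/TNFa/C1q EV, 33.9 in UT EV and 54.1 in MAPS. Border macrophages held 2.07, 0.922 and 0.873 CPM in the EV libraries, from 2, 1 and 1 UMIs. The classical sum went the other way in all 3 libraries, being higher in border macrophages. Within gated microglia, cells with Ms4a7 held 10.6, 19.98, 19.9 and 34.3 CPM of H2-Oa, below the core with 38.4, 50.8, 38.3 and 56.9 CPM in each library.

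H2-Oa was near even between IL-4/C1q EV and UT EV. IL-4/C1q EV stood at 0.889 (0.791 to 0.999) of UT EV over all gated microglia and at 1.001 (0.832 to 1.204) in the core, so the small difference over all microglia was not seen in the core. Against IL-1a/TNFa/C1q EV it was 0.719 (0.644 to 0.803) and against MAPS 0.558 (0.506 to 0.613). It was found in 3.32%, 4.25%, 3.73% and 5.79% of thinned microglia against 0%, 0.152%, 0.0820% and 0.482% of oligodendrocytes. In B cells H2-Oa stood at 125 CPM in IL-4/C1q EV, 188 in IL-1a/TNFa/C1q EV, 97.0 in UT EV and 295 in MAPS. H2-Ob, the beta chain gene of H2-O and not a member, stood at 319, 249, 129 and 708 CPM in B cells and 14.2, 16.7, 14.3 and 36.6 CPM in microglia, with 1.04, 3.69 and 0.873 CPM in border macrophages of the EV libraries.

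**Figure D3:**
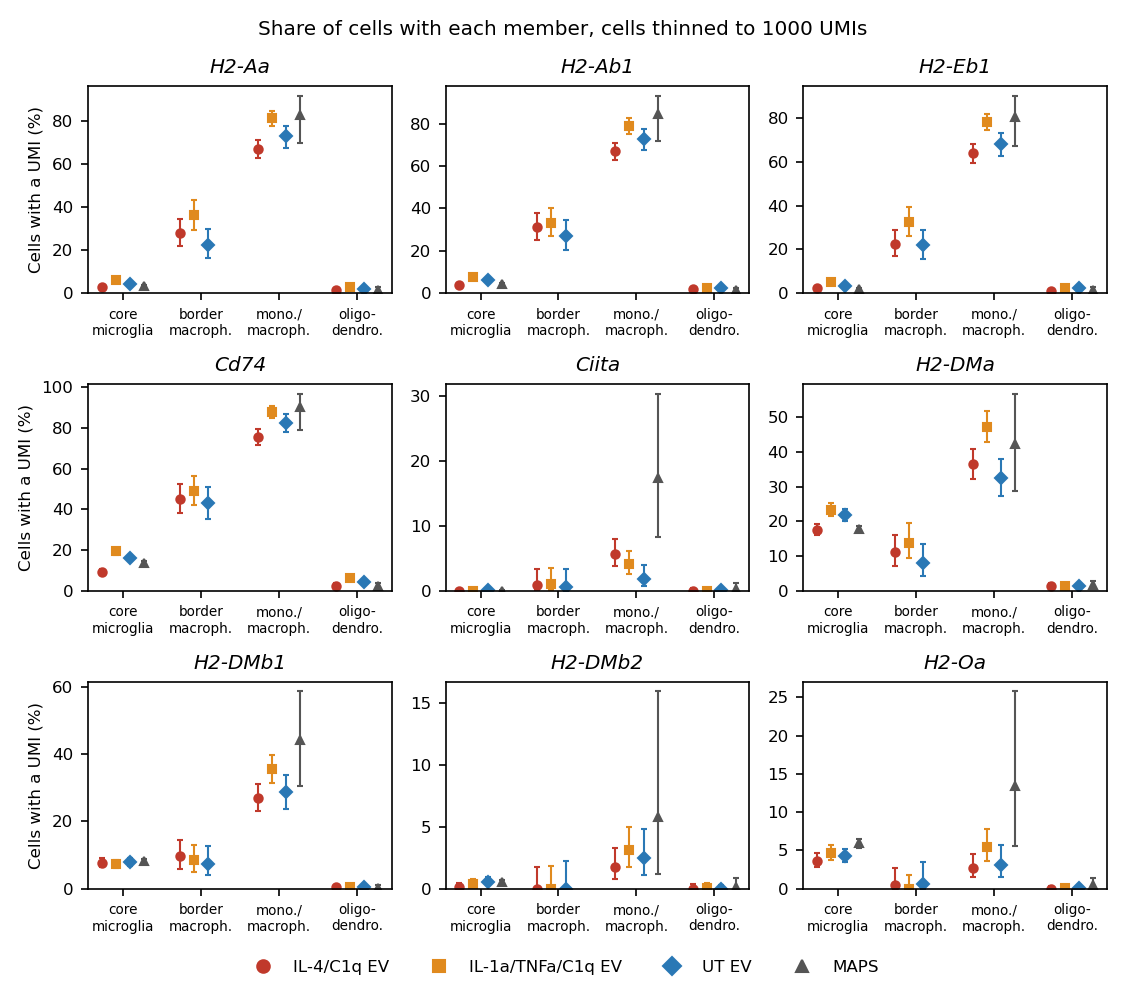
Each panel is 1 member and gives on the y axis the percentage of cells with at least 1 UMI after thinning to 1000 UMIs, for 4 cell classes on the x axis, with 1 point per library and exact 95% intervals. Classes under 50 cells in a library are left out. H2-DMa was found in 17.6% to 23.4% of core microglia against 1.31% to 1.61% of oligodendrocytes, while H2-Aa in core microglia (2.83% to 6.15%) lay closer to oligodendrocytes (1.32% to 2.96%).

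**Figure D4:**
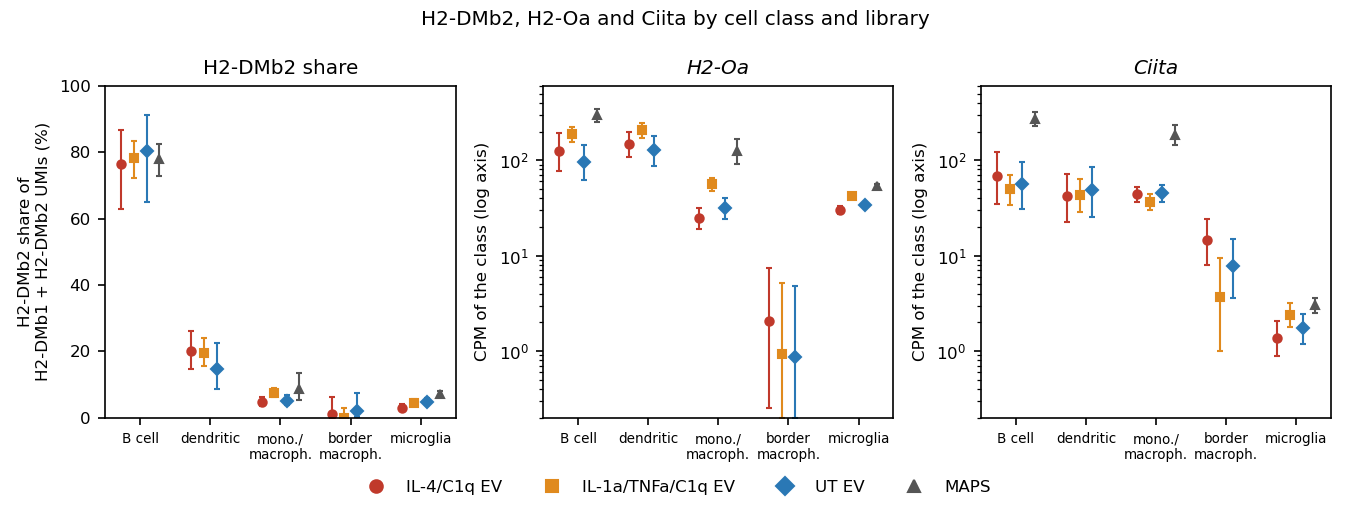
The left panel gives the percentage of H2-DMb1 and H2-DMb2 UMIs that were H2-DMb2, and the middle and right panels the CPM of H2-Oa and Ciita on log axes, by cell class and library with exact 95% intervals. Classes under 50 cells in a library are left out. The H2-DMb2 share is 76.4% to 80.5% in B cells and 2.97% to 7.24% in microglia, H2-Oa is at 0.873 to 2.07 CPM in border macrophages, and Ciita is highest in MAPS in B cells (270 CPM) and monocytes and macrophages (185 CPM).

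In monocytes and macrophages as gated, the classical sum of IL-4/C1q EV stood below both other EV libraries inside 1.5-fold. The ratio to UT EV was past 1.5-fold once cells of a dendritic cluster were left out. Whether monocytes and macrophages differ from microglia in this was not tested. Their classical sum in IL-4/C1q EV was 0.819 (0.810 to 0.827) of UT EV and 0.683 (0.677 to 0.690) of IL-1a/TNFa/C1q EV. Among the members 0 of 8 were past 1.5-fold against UT EV, where 4.06% of 3819 genes were lower and 5.16% higher. Against IL-1a/TNFa/C1q EV 3 of 9 were past it lower and 0 higher, Cd74 at 0.623 (0.614 to 0.632), H2-DMb2 at 0.480 (0.338 to 0.675) and H2-Oa at 0.439 (0.325 to 0.588), where 2.05% of 3959 genes were lower and 11.9% higher. H2-Aa stood at 5046 CPM in IL-4/C1q EV, 7248 in IL-1a/TNFa/C1q EV, 5623 in UT EV and 9608 in MAPS, and Cd74 at 10624, 17053, 14130 and 20610.1 CPM. H2-DMa stood at 477, 657, 484 and 699 CPM. The 53 monocytes and macrophages of MAPS were the highest for each of these genes. A Leiden cluster named dendritic took 36.8%, 35.4%, 26.9% and 75.5% of the gated monocytes and macrophages. Without it the ratio of IL-4/C1q EV over UT EV was 0.656 (0.648 to 0.665), past 1.5-fold lower. That fit was chosen after seeing the data.

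In border macrophages IL-1a/TNFa/C1q EV stood above both other EV libraries. Cd74 stood there at 2198 CPM in IL-4/C1q EV, 3911 CPM in IL-1a/TNFa/C1q EV and 2147 CPM in UT EV, and H2-Eb1 at 669.5, 1346 and 571 CPM. Their classical sum in IL-4/C1q EV was 1.12 (1.07 to 1.17) of UT EV and 0.589 (0.568 to 0.611) of IL-1a/TNFa/C1q EV, and that of IL-1a/TNFa/C1q EV was 1.90 (1.83 to 1.97) of UT EV. H2-Eb1 had the widest gap there among the chains and Cd74, at 2.36 (2.15 to 2.59) in IL-1a/TNFa/C1q EV over UT EV.

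In dendritic cells the classical sum of IL-4/C1q EV was 1.08 (1.05 to 1.11) of UT EV, on 75 and 51 cells, and stricter gates gave values on either side of 1. Of 6 members with enough UMIs, 0 were past 1.5-fold, against 3.99% of 626 genes lower and 3.35% higher. H2-Aa stood at 8137 CPM in IL-4/C1q EV, 9651 in IL-1a/TNFa/C1q EV, 7615 in UT EV and 11999 in MAPS. In B cells the sum of IL-4/C1q EV was 1.24 (1.18 to 1.30) of UT EV, on 77 and 63 cells. H2-Eb1 stood at 1.68 (1.46 to 1.93), H2-Ab1 at 1.51 (1.35 to 1.70), H2-Aa at 1.45 (1.28 to 1.65) and Cd74 at 1.02 (0.954 to 1.10) of UT EV. Of 5 members 3 were past 1.5-fold higher, against 25.1% of 435 genes higher and 11.3% lower, and the median log2 ratio of all genes in B cells was itself 0.33.

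Genes that act upstream and beside class II were taken from lists that do not hold the members. Of 15 regulators of class II, 15 had enough UMIs in microglia. For IL-4/C1q EV over UT EV 0 were past 1.5-fold lower, with a median log2 ratio of 0.04, against 2.74% of all genes lower. Irf1, an interferon-induced factor that acts on Ciita, stood at 108 CPM in IL-4/C1q EV and 126 CPM in UT EV, a ratio of 0.856 (0.806 to 0.910). Rfxap, a subunit of the RFX factor of the X box, stood at 0.875 (0.789 to 0.971). Il10ra, of the same list, went the other way at 1.13 (1.08 to 1.19).

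Of 13 genes of peptide loading and co-stimulation, 10 had enough UMIs, with 1 past 1.5-fold higher, 0 lower and a median log2 ratio of 0.12 for IL-4/C1q EV over UT EV, against 1.93% of all genes higher, 2.74% lower and a median of -0.05. That gene was Cd80, a co-stimulatory ligand for T cells, at 7.72 CPM in IL-4/C1q EV and 4.67 CPM in UT EV, a ratio of 1.66 (1.26 to 2.19). Lgmn, an endosomal protease, stood at 1.13 (1.11 to 1.15) and Cd274, the ligand PD-L1, at 1.30 (1.10 to 1.54).

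The 10 genes of the type I interferon response ran the other way from the classical genes in IL-4/C1q EV. All 10 were past 1.5-fold higher than in UT EV in microglia, with a median log2 ratio of 2.12, against 1.93% of all genes higher. In the core 9 of the 9 with enough UMIs were, with a median of 2.06, against 2.07% of all genes higher. Oasl2, an antiviral gene, stood at 52.5 CPM in IL-4/C1q EV and 8.39 CPM in UT EV, a ratio of 6.26 (5.29 to 7.45). This list was known from earlier results of these data to be high in that library.

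Among thinned microglia of each library, the cells with at least 2 UMIs of the interferon genes held more class II than the cells with none. In IL-4/C1q EV, cells with 0, 1 and at least 2 interferon UMIs held 79.0, 81.3 and 120 classical UMIs per 100 cells, and 26.1% of cells had at least 2. In UT EV the values were 149, 228 and 344, with 3.61% of cells in the top group. In IL-1a/TNFa/C1q EV they were 192, 209.7 and 590.1, with 2.56%, and in MAPS 63.6, 98.2 and 182, with 3.12%. At each number of interferon UMIs IL-4/C1q EV was below the other 2 EV libraries, and the cells with more interferon UMIs held more class II in each library. The order broke in the core of IL-4/C1q EV, with 32.1, 20.6 and 48.6, and in the core of UT EV, with 53.9, 89.96 and 73.7.

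Interferon gamma is the main inducer of Ciita in macrophages. Its gene, Ifng, was read in T cells at 277 CPM in IL-4/C1q EV, 356 in IL-1a/TNFa/C1q EV, 466 in UT EV and 223 in MAPS, and in NK cells at 505, 458, 596 and 307 CPM. T cells of IL-4/C1q EV stood at 0.594 (0.531 to 0.663) of UT EV and 0.778 (0.700 to 0.864) of IL-1a/TNFa/C1q EV. In microglia Ifng was counted in 2, 48, 32 and 89 UMIs. Its part in the class II levels was not tested.

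Among 13152 genes ranked over 63 pairs of library and class, the genes whose log2 CPM was most like the classical sum were Napsa, an aspartic protease gene, with a Pearson r of 0.9015, and Ifi30, a lysosomal thiol reductase that unfolds antigen for class II, with 0.888. Ms4a4c (0.8467, itself a monocyte marker of the gate), Cybb (0.8433), Rnase6 (0.8322) and Gm6377 (0.8287) came next. Among the members H2-DMa had 0.9318, H2-DMb1 0.8908, Ciita 0.837, H2-DMb2 0.7561 and H2-Oa 0.7395, while the 4 classical genes, which make up the sum, had 0.9948 to 0.9976. The pairs share libraries and depth, so r is a description.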

How the data were processed

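Single-cell suspensions were counted in 4 libraries, 1 per group. The authors deposited raw UMI counts per gene and barcode. Per the file headers the matrices were written by Cell Ranger 8.0.1, whereas version 7.0.0 of it, Seurat 4.1.0 and GRCm39 stand in the submitters' processing notes, and which version made the counts is not settled. Members and lists were chosen with earlier results of these data known.

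Barcodes under 500 UMIs, under 300 genes or over 20.0% mitochondrial UMIs were dropped, as were doublets called by scrublet in scanpy 1.11.5 (4.003% to 5.068% per library). A cell took the class of which it held at least 3 of 12 markers, with a lead of at least 1 over the next class. Ratios carry exact conditional binomial, sums exact Poisson and shares exact Clopper-Pearson intervals. The calculation of ratios and intervals was checked on simulated Poisson counts. These lack the spread between cells of the real counts, so the check does not cover that spread. Alternatives were other gates, Leiden clusters (resolution 1, 40 components, members left out), doublets kept, a common floor of 1233 UMIs, thinning to 1000 UMIs, TMM factors (edgeR 4.0.16), and subtraction of the oligodendrocyte level. The text names all members, at most 4 genes per list with the widest ratio, and the 6 genes most like the classical sum. The labels also name healthy mice, whose data were not used here. The result of 1 gene of the regulator list is not reported here.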

Additional observations from a re-analysis of the deposited data

Results flagged for a closer look

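Among monocytes and macrophages, dendritic cells and B cells, the classical sum lay on the other side of 1 from microglia in 8 pairs of class and comparison. Dendritic cells were not compared with MAPS here, since MAPS had 21 of them, under the minimum of 50 cells. With 1 library per group these differences were not tested. For IL-4/C1q EV over UT EV, dendritic cells stood at 1.08 and B cells at 1.24, against 0.523 in microglia. Other classes also stood above 1 in that comparison, border macrophages at 1.12, T cells at 1.98 and NK cells at 1.47. For IL-4/C1q EV over MAPS, monocytes and macrophages stood at 0.559 and B cells at 0.774, against 1.47 in microglia. For IL-1a/TNFa/C1q EV over MAPS they stood at 0.819 and 0.929, against 3.397, and for UT EV over MAPS at 0.683 and 0.624, against 2.81. The microglial ratio of IL-4/C1q EV over MAPS was 0.698 in core microglia, on the same side as monocytes and B cells, and those of the other EV libraries over MAPS were 2.14 and 1.22 in the core.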

How the results depend on the processing

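No paired analysis was possible because each group has 1 library and no label pairs the libraries. The order below is microglia for IL-4/C1q EV over UT EV, over IL-1a/TNFa/C1q EV and over MAPS, then IL-1a/TNFa/C1q EV over UT EV. Leiden clusters gave 0.300, 0.216, 0.550 and 1.39, so the ratio to MAPS changed side. So it did with fewer than 2 Ms4a7 UMIs (0.447, 0.319, 0.910 and 1.40) and in the core (0.571, 0.326, 0.698 and 1.75). A lead of at least 2 markers gave 0.479, 0.398 and 1.23, and at least 4 markers gave 0.441 over IL-1a/TNFa/C1q EV and 1.39 over MAPS. Thinning gave 0.543, 0.444, 1.29 and 1.22, TMM 0.540, 0.399, 2.78 and 1.35, and oligodendrocyte subtraction 0.512, 0.392, 1.41 and 1.31. Keeping doublets gave 0.535 over UT EV and 1.503 over MAPS, and 1.24 for IL-1a/TNFa/C1q EV over UT EV. The common UMI floor moved none of these 4 by more than its interval. For IL-4/C1q EV over UT EV, monocytes and macrophages stood at 0.809 (at least 4 markers), 0.831 (lead of 2), 0.904 (thinned), 0.838 (TMM) and 0.656 (without the dendritic cluster). Dendritic cells stood at 1.01 (at least 4 markers), 0.974 (lead of 2), 0.9503 (Leiden), 1.02 (thinned) and 1.12 (TMM), and so changed side under a lead of 2 and Leiden. B cells stood at 1.56 (at least 2 markers), 1.11 (at least 4), 1.13 (lead of 2), 1.12 (doublets kept), 1.08 (thinned) and 1.04 (TMM). No Leiden cluster took the monocyte and macrophage name, so that value is missing. The count of members past 1.5-fold in microglia stayed at 4 or 5 in 13 alternatives. Of single members, H2-Oa changed side, at 1.001 in the core, as did Ciita, at 1.24 on fewer than 100 UMIs. The cause of these moves was not tested. The gates with Ms4a7, the core and the monocyte fit without the dendritic cluster were added after seeing the data. Depth limits Ciita and H2-DMb2 in microglia and every member in the 21 dendritic cells of MAPS.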

Other observations

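Plasmacytoid dendritic cells held a classical sum of 10147 CPM in 44 cells of IL-4/C1q EV, 15431 CPM in 77 cells of IL-1a/TNFa/C1q EV and 22438 CPM in 18 cells of UT EV, and MAPS had 1 such cell. IL-4/C1q EV was again the lowest of the EV libraries, on few cells.

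Neutrophils, which are not expected to present antigen by class II, held 1183 CPM in 436 cells of IL-4/C1q EV, 6207 CPM in 74 cells of IL-1a/TNFa/C1q EV and 4231 CPM in 53 cells of UT EV. NK cells held 1390.5, 4798 and 944 CPM in the same order, and 1318 CPM in MAPS. These values lie above the oligodendrocyte level of the same library, and the part of free transcripts or of adhering cells in them was not tested.

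Saa3, an acute-phase gene of activated myeloid cells, differed between the microglia of the libraries beside class II: it stood at 539.6 CPM in IL-4/C1q EV, 1866 CPM in IL-1a/TNFa/C1q EV, 361 CPM in UT EV and 4.21 CPM in MAPS. Its order of libraries was not that of the classical sum.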
